A study of Mus musculus with 24 samples.

Results

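The 43 genes described here belong to the interferon response and to the sensing of foreign RNA. They were taken as a fixed list of gene symbols, and all 43 were found among the 13534 genes of the deposited whole-cell count table and among the 11568 genes of the table for cytoplasm and nucleus. By role, 5 are nucleic acid sensors, 5 are transcription factors, 20 are antiviral effectors, 8 act in ISG15, ubiquitin or ADP-ribose modification, 3 act in antigen processing and 2 are chemokines.

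The sensors RIG-I (Ddx58) and MDA5 (Ifih1) recognise double-stranded RNA in the cytoplasm, and Tlr3 recognises it in endosomes. Their signal switches on interferon genes through factors such as Irf7. Secreted interferon then acts on its receptor, and Stat2 and Irf9 act in a complex that binds a short repeated element in the promoters of the effector genes.

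The cells were NIH3T3, a mouse fibroblast line, transfected by lipid reagent with 10 nM of a mimic of miR-29b or of a scrambled control. Both mimics carried 3-cyanovinylcarbazole, a base analogue that light can crosslink to a paired strand. Fresh medium was given at 24 h and cells were collected after a further 8 h. The whole-cell groups were the miR-29b pulldown (pull29b), the scrambled pulldown (pullscram), the miR-29b input (input29b) and the scrambled input (inputscram), with 4 libraries in each, and 8 further libraries covered the same 4 groups in cytoplasm and in nucleus, 1 library apiece.

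Every group used here had been transfected with a mimic, so none gives the level of the interferon genes without transfection. The deposited headers name replicates 1 to 3 lysed and replicate 4 intact. That leaves 3 lysed libraries and 1 intact library in each whole-cell group, and these are given apart. Whether the libraries of a group were made from different dishes of cells is not given, and the spread that each p-value is set against may be technical. Each library was made from 5 ng of RNA, except that the intact miR-29b input used 6 ng.

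The mature miR-29 family members share bases 2 to 8, the seed that pairs with target mRNAs, and are shown because the mimic was built on miR-29b. Capitals mark the seed. The sequences are from RefSeq (GRCm38.p6).
mmu-miR-29b-3p: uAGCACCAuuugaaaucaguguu
mmu-miR-29a-3p: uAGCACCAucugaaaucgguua
mmu-miR-29c-3p: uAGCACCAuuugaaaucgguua

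Promoters are shown for 3 interferon-stimulated genes that the results below turn on. They were read from RefSeq windows (GRCm38.p6) that run from 250 bases before to 50 bases after each gene start, and the last 150 bases before the start are printed. Capitals mark matches to GAAA followed by any 2 bases and GAAA again, or to its reverse complement with TTTC, a form of the element bound by the Stat and Irf complex, searched on both strands with overlaps allowed. Windows were found for 34 of the 43 genes, and 14 of these genes (41.2%) held the motif, against 3.99% of all 27025 genes in the table. A match is a description of letters, not of binding.
Ifit1, chr19:34640739-34640888, plus strand: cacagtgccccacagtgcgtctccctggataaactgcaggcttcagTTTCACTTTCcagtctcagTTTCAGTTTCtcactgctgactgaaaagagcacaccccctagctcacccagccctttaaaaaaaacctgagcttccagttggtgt
Rsad2, chr12:26456453-26456602, minus strand: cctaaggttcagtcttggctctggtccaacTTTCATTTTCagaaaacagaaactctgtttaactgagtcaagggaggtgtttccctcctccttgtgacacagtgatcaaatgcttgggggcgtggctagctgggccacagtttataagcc
Isg15, chr4:156200819-156200968, minus strand: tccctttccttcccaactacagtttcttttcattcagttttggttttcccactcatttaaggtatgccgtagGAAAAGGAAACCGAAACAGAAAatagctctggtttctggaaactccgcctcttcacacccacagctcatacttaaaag
Ifit1 held 2 matches, Rsad2 held 1 match, and Isg15 held 3 that overlap one another. The window of Trim25, the ubiquitin ligase that the pulldown results turn on, held 0.

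Listed counts per whole-cell library ranged from 7409157 to 55153996. Of 13 fibroblast markers 11 were listed, with a summed level of 4040 to 16230 CPM per library (CPM is the count scaled by library size). The sum includes Col1a1, Col1a2 and Col3a1, which are also among the reported miR-29 targets below, and its top was in a miR-29b pulldown. Postn and Dcn reached at most 2.34 and 3.03 CPM. Epithelial markers had 2 of 5 listed, at a sum of 0.57 to 4.00 CPM. Of 8 leukocyte markers 3 were listed, at a sum of 3.46 to 8.99 CPM, and none of 3 endothelial markers was. All 10 reported miR-29 targets examined rose in the mimic-specific comparison of the lysed libraries (24.4% of all genes), with a median log2 change of 3.74. These targets were listed with earlier results of these data known, so their rise is not an independent check of the pulldown.

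Some libraries stood apart. Replicate 4 of the scrambled pulldown, labelled intact, held the interferon genes at the level of its lysed companions, with 31 of 43 inside their range and a median 1.14-fold below them. The intact libraries of the miR-29b pulldown, miR-29b input and scrambled input had medians 11.1-fold, 9.83-fold and 8.78-fold below their lysed companions. Across all genes, replicates 3 and 4 of the scrambled pulldown had a chi-square per degree of freedom of 7.427. Lysed and intact libraries of the inputs had 219.9 to 404.9, and lysed inputs of 1 mimic had 7.942 to 25.17 among themselves. Lysed pulldowns could also lie far apart: replicates 1 and 2 had 236.5 with miR-29b and 185.1 with the scrambled mimic. Replicate 4 of the miR-29b input held 4137 CPM of the 10 reported miR-29 targets together, against 1362 CPM in replicate 4 of the scrambled input, while the lysed inputs had 1758 to 1771 CPM with miR-29b and 1923 to 1929 CPM with the scrambled mimic. Replicate 3 of the pulldown with miR-29b took a value between those of the other 2 for 2486 of the 2499 genes that were over 1.5-fold apart (99.5%, against 82.4% to 86.2% in the other groups). Replicate 1 of the scrambled pulldown had the fewest counts and the highest values of that group for many members.

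**Figure D1:**
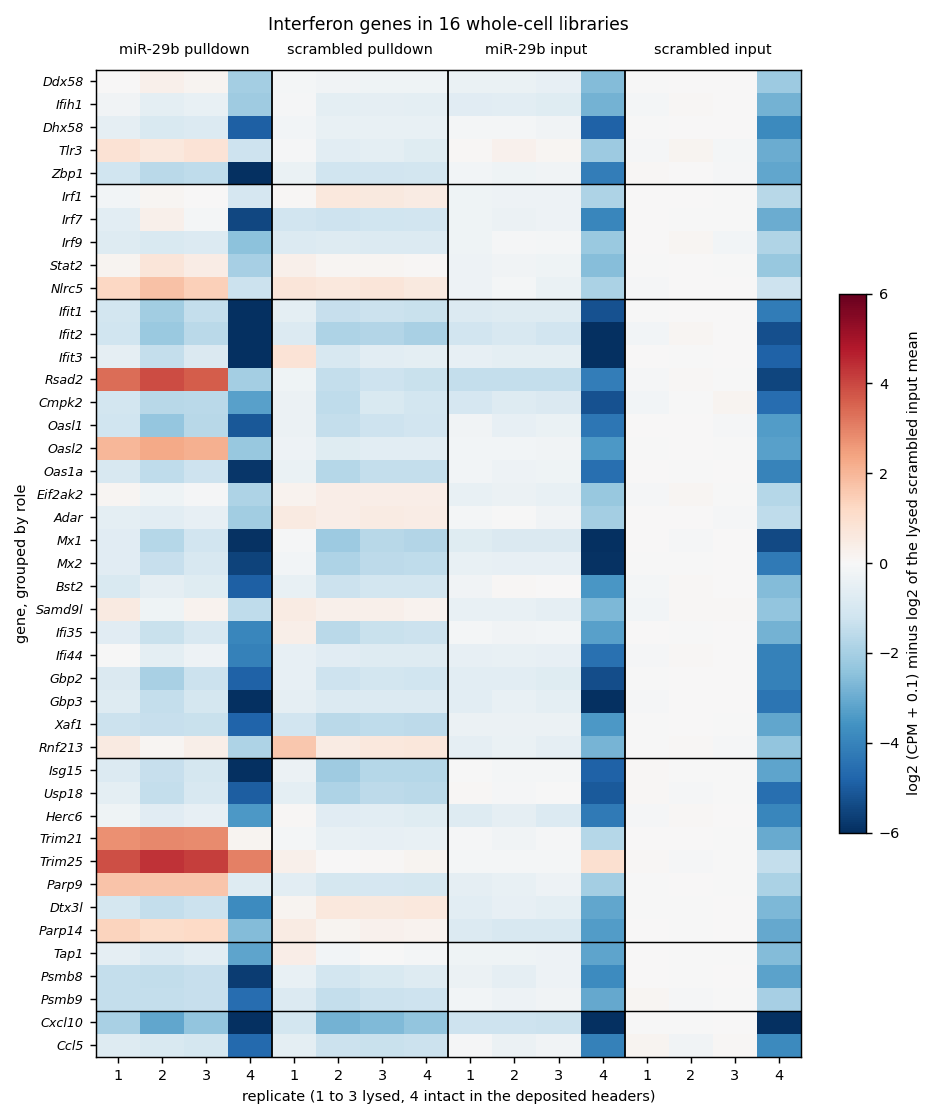
Each cell shows the log2 level of a gene (CPM + 0.1) minus the log2 of its mean in the 3 lysed scrambled inputs, for 43 genes by role (down the page) and 16 whole-cell libraries (columns, in 4 groups). Replicate 4 is blue for nearly every gene in the miR-29b pulldown and both inputs. In the scrambled pulldown, replicate 4 has the paler shades of its lysed companions, which are blue for most genes. The strongest red in the lysed miR-29b pulldown is that of Trim25, Rsad2 and Trim21, with Oasl2 and Parp9 paler. Trim25 is red in replicate 4 of that pulldown too.

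The intact and lysed inputs differed across nearly the whole group. Of the 43 genes, 42 were lower in the intact inputs than in the lysed inputs, none was higher and Trim25 did not pass the test (edgeR quasi-likelihood test, 8 inputs, with the mimic as a covariate). Among all 12662 genes tested, 27.8% were lower and 28.1% higher. The median log2 change of the members was −3.37, against 0.02 over all genes. The test assumed that the 2 intact inputs varied like the lysed ones and that the mimic effect was the same in both procedures. Its SE and adjusted p-values thus rest mainly on the spread of the lysed inputs. Trim25, described below, did not have the same mimic effect in both. In bulk RNA, fewer responding cells and less of each mRNA per cell cannot be told apart, and with 1 intact library per mimic the procedure and the experiment cannot be told apart either.

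Among the sensors and their factors, Ddx58, which encodes RIG-I, had 16.5 CPM in the intact miR-29b input and 21.8 CPM in the intact scrambled input. Its lysed values were 75.5, 75.6 and 70.9 CPM with miR-29b and 97.9, 100.6 and 101.2 CPM with the scrambled mimic. The sets did not overlap, and Ddx58 fell by 2.26 ± 0.07 on the log2 scale (SE, edgeR adjusted p = 1.48e-07). Ifih1, which encodes MDA5, had 8.58 and 8.65 CPM in the intact miR-29b and scrambled inputs, against 37.4 to 65.7 CPM in the 6 lysed ones (log2 change −2.57 ± 0.16, edgeR adjusted p = 5.3e-06). Irf7, the factor that drives type I interferon genes, had 89.5 and 175.5 CPM in the intact miR-29b and scrambled inputs, against 1081 to 1408 CPM in the lysed ones (log2 change −3.37 ± 0.16, edgeR adjusted p = 1.21e-06). All 5 sensors and all 5 transcription factors were lower, by a median of −2.74 and −2.03 on the log2 scale, and Nlrc5, an activator of class I antigen genes, moved least of the factors (−1.53 ± 0.13).

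All 20 effectors were lower, with a median log2 change of −4.00. Ifit1, which binds foreign mRNA caps and blocks their translation, had 27.4 and 56.8 CPM in the intact miR-29b and scrambled inputs, against 591.6 to 1050 CPM in the lysed ones. Its change of 20.97-fold was among the best supported (log2 −4.39 ± 0.09, edgeR adjusted p = 2.51e-08). Ifi44, an antiviral interferon-induced protein, had 20.1 and 26.4 CPM in the intact inputs of miR-29b and scrambled mimic, against 313.6 to 467.8 CPM in the lysed ones. Oasl2, an oligoadenylate synthetase-like protein, had 21.5 and 24.5 CPM there, against 209 to 241.6 CPM in the lysed ones. The log2 changes of Ifi44 and Oasl2 were −4.12 ± 0.09 and −3.37 ± 0.07 (edgeR adjusted p = 2.51e-08 for each). Xaf1, a promoter of apoptosis, had 23.1 and 28.7 CPM in the intact inputs, against 196 to 260.2 CPM in the lysed ones (log2 change −3.21 ± 0.07, edgeR adjusted p = 2.51e-08).

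The largest changes were those of Mx1, a GTPase that traps viral nucleocapsids, at 51.66-fold, of the chemokine Cxcl10 at 49.8-fold and of the nucleotide kinase Cmpk2 at 48.9-fold. The counts behind the intact values were low: Mx1 had 26 and 38 counts, Cxcl10 had 31 and 24, and Cmpk2 had 2 and 4 in the miR-29b and scrambled intact inputs. Eif2ak2, which encodes the kinase PKR, and Adar, which edits double-stranded RNA, changed least among the effectors, at 3.69-fold and 3.51-fold. Eif2ak2 had 14.7 and 21.8 CPM in the intact miR-29b and scrambled inputs, against 52.9 to 78.0 CPM in the lysed ones (log2 change −1.88 ± 0.09, edgeR adjusted p = 1.16e-06). Rsad2, which encodes the antiviral enzyme viperin, had 4.62 and 1.74 CPM in the intact miR-29b and scrambled inputs, against 30.5 to 31.1 CPM in lysed miR-29b inputs and 80.0 to 86.8 CPM in lysed scrambled inputs (log2 change −3.87 ± 0.56, edgeR adjusted p = 0.000512).

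In the ubiquitin and ADP-ribose group, 7 of 8 genes were lower. Isg15, the ubiquitin-like modifier, had 12.6 and 41 CPM in the intact miR-29b and scrambled inputs, against 339.1 to 384.2 CPM in the lysed ones (log2 change −3.94 ± 0.36, edgeR adjusted p = 3.93e-05). Trim25, the ubiquitin ligase that activates RIG-I, went opposite ways in the intact libraries: it had 377.2 CPM in the intact miR-29b input and 72.5 CPM in the intact scrambled input, against 182.6 to 203.7 CPM in the 6 lysed ones. Its fitted change was −0.01 ± 0.44 (edgeR adjusted p = 0.99). Without replicate 4 of the scrambled input the change was 0.96 ± 0.06 (edgeR adjusted p = 4.7e-07). Leaving out the intact miR-29b input instead gave −1.53 ± 0.07 (edgeR adjusted p = 1.28e-07), so the direction was that of whichever intact library stayed in. The high value stands in the library whose summed miR-29 targets were also high, and the part of one in the other was not tested.

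All 3 antigen processing genes (Tap1, Psmb8, Psmb9) and both chemokines were lower. Of 51 further interferon-stimulated genes tested, 48 were lower and 1 was higher, with a median of −2.68. The receptor and signalling genes moved less, with 4 of 13 lower, 2 higher and a median of −0.20, and the adaptors and kinases had 10 of 21 lower, 2 higher and a median of −0.40.

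Within the lysed inputs, the interferon genes tended to be lower with miR-29b than with the scrambled mimic. The 3 miR-29b inputs lay below the 3 scrambled inputs without overlap for 36 of 43 genes (21.9% of all genes), and for 0 of 43 they lay above (16.7% of all genes). In the model of all 12 lysed libraries, 4 genes were lower, namely Parp14, Rsad2, Ifih1 and Ddx58, and 0 were higher, against 0.74% and 0.639% of 12834 genes. The median log2 change was −0.36, against −0.02 over all genes. With the 6 lysed inputs fitted alone, whose replicates varied less than those of the pulldowns, 32 of 43 were lower and 0 higher, against 13.3% and 11% of 12084 genes. The coefficient of variation of Ifit1, for example, was 0.902% in miR-29b inputs and 2.6% in scrambled inputs, but 33% in miR-29b pulldowns and 32.2% in scrambled pulldowns. DESeq2 on the 12 libraries called 15 lower, against 3.55% of all genes.

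Rsad2 had 31.1, 30.8 and 30.5 CPM in the lysed miR-29b inputs, against 80.0, 86.8 and 81.3 CPM in the lysed scrambled inputs. The groups lay far apart relative to their spread, with a log2 change of −1.43 ± 0.25 over the 12 libraries (edgeR adjusted p = 0.0201). The 6 inputs alone gave −1.41 ± 0.05, or 2.65-fold lower (edgeR adjusted p = 1.4e-06). Parp14, an ADP-ribosyltransferase, had 51.5, 47.0 and 47.1 CPM with miR-29b, against 92.0, 88.9 and 93.4 CPM with the scrambled mimic (log2 change −0.91 ± 0.11, edgeR adjusted p = 0.00238). Ifih1 had 38.4, 40.4 and 37.4 CPM with miR-29b, against 57.6, 65.7 and 63.1 CPM with the scrambled mimic (log2 change −0.68 ± 0.14, edgeR adjusted p = 0.0401). Ddx58, whose values are given above, also did not overlap between mimics (log2 change −0.43 ± 0.09, edgeR adjusted p = 0.0444). The calls for Rsad2, Ifih1 and Ddx58 were lost when any 1 of the 6 inputs was left out of the 12-library model (edgeR adjusted p = 0.0687 to 0.246), while Parp14 kept its call in all 6 of these fits.

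Among the other effectors, Ifit1 had 591.6, 600.4 and 601.5 CPM with miR-29b, against 998.5, 1037 and 1050 CPM with the scrambled mimic. It changed by −0.78 ± 0.24 in the 12-library model (edgeR adjusted p = 0.14) and by −0.77 ± 0.04 in the fit of the inputs (edgeR adjusted p = 9.93e-06). Irf7 had 1147, 1081 and 1128 CPM with miR-29b, against 1408, 1359 and 1346 CPM with the scrambled mimic, without overlap. Its log2 change was −0.29 ± 0.18 over 12 libraries (edgeR adjusted p = 0.513) and −0.28 ± 0.05 over the inputs (edgeR adjusted p = 0.00305). Eif2ak2 had 53.6, 55.6 and 52.9 CPM with miR-29b, against 67.8, 78.0 and 70.2 CPM with the scrambled mimic. It too passed only with the inputs fitted alone (log2 change −0.40 ± 0.06, edgeR adjusted p = 0.00137, against 0.0966 over 12 libraries).

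By role, the fit of the 6 inputs called 3 of 5 sensors, 4 of 5 transcription factors, 17 of 20 effectors, 4 of 8 ubiquitin and ADP-ribose genes, all 3 antigen processing genes and 1 of 2 chemokines lower. Cxcl10, a chemokine for T cells, was 2.36-fold lower (log2 change −1.24 ± 0.05, edgeR adjusted p = 1.4e-06) and Ifit2, a relative of Ifit1, 2.07-fold lower. The genes that did not pass were Dhx58, Tlr3, Irf9, Adar, Bst2, Ifi35, Isg15, Usp18, Trim21, Trim25 and Ccl5. Isg15 had 364.5, 339.1 and 343.6 CPM with miR-29b, against 384.2, 362.8 and 361.7 CPM with the scrambled mimic, and these sets overlap (log2 change −0.07 ± 0.05, edgeR adjusted p = 0.402). Tlr3 and Usp18 had changes above 0, at 0.18 ± 0.08 and 0.003 ± 0.06.

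Outside the list, 31 of 51 other interferon-stimulated genes were lower and 6 higher in the fit of the inputs, while the receptor and signalling genes were evenly split, with 5 of 13 lower and 5 higher. Of the 10 reported miR-29 targets, 6 were lower and 0 higher, with a median of −0.23. Of 10 fibroblast markers tested, 2 were lower and 1 higher.

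The single-library sets leaned the same way, with no test. The cytoplasmic miR-29b input was below the cytoplasmic scrambled input for 41 of 43 genes (50.1% of all genes), with a median log2 ratio of −0.49. At least 2-fold, 3 were lower (0.415% of all genes) and 0 higher (0.527%). In the nucleus, 39 of 43 were lower (49.8% of all genes; median −0.48), of which 2 at least 2-fold (0.89% of all genes), and 0 were at least 2-fold higher (0.7%). In the intact inputs 39 of 43 were lower (53.2% of all genes; median −0.51), and 8 fell at least 2-fold (3.65% of all genes) while 3 were at least 2-fold higher (8.6% of all genes). Those 3 were Trim25, Rsad2 and Trim21. The 10 reported miR-29 targets had a median log2 ratio of 1.63 in the same comparison, in which the intact miR-29b input is the library with the high summed targets given above. The part of that in the 3 values was not tested. Trim25 had 15912 counts in the intact miR-29b input and 2203 in the intact scrambled input, Rsad2 had 195 and 53, and Trim21, a ligase that also binds antibodies in the cytosol, had 297 and 85.

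**Figure D2:**
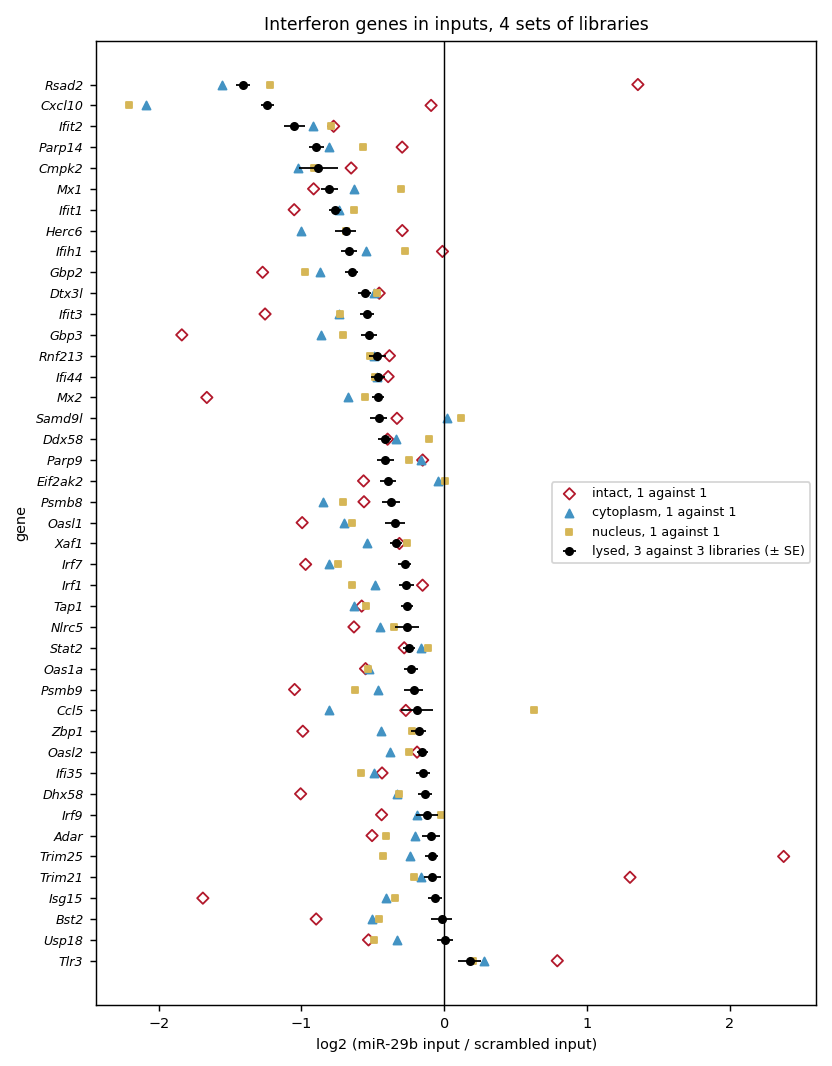
The log2 ratio of the miR-29b input over the scrambled input (x axis) is shown for 43 genes (y axis, sorted by the lysed value) in lysed (black, ± SE from the fit of the 6 inputs), intact, cytoplasmic and nuclear libraries, the last 3 with 1 library per mimic. Most points lie left of 0, and the intact values of Trim25 (2.38), Rsad2 (1.36) and Trim21 (1.30) lie to the right.

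The pulldown comparison asks which interferon mRNAs were recovered more with the miR-29b mimic than with the scrambled one. Of the 43 genes, 11 were higher and 9 lower in the lysed miR-29b pulldown than in the lysed scrambled pulldown, against 29.5% of all genes higher and 29.5% lower. The member median of −0.07 was close to the −0.08 over all genes. Without overlap of the 3 libraries on each side, 10 were higher (28.9% of all genes) and 6 lower (28.4%). The largest rises among the members were those of Rsad2, Trim25, Trim21, Oasl2 and Parp9, each over 4-fold. The share of all genes with a rise over 4-fold was not taken. The authors' deposited table marks the same 5 genes as significant in all lysed replicates, as 5.05% of all its genes are. It marks Trim25 alone among the 43 as significant in the intact set and as a positive hit, and it marks 0 of 43 as holding a predicted site, against 3.76% of all genes.

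Trim25 had 2902, 4009 and 3465 CPM in the lysed miR-29b pulldown, against 239.5, 202.1 and 207.7 CPM in the lysed scrambled pulldown. There was no overlap, and the log2 change was 4.00 ± 0.15 (edgeR adjusted p = 1.52e-09). Rsad2 had 848, 1245 and 1035 CPM with miR-29b, against 69.8, 30.8 and 34.6 CPM with the scrambled mimic (log2 change 4.55 ± 0.29, edgeR adjusted p = 6.34e-08). Its high scrambled value was that of replicate 1, the shallow library. Trim21 had 156.3, 173.1 and 169.5 CPM with miR-29b, against 21.2, 17.3 and 16.7 CPM with the scrambled mimic (log2 change 3.19 ± 0.11, edgeR adjusted p = 1.28e-09).

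Oasl2 had 953.7, 1165 and 1063 CPM with miR-29b, against 193.7, 144.6 and 153.7 CPM with the scrambled mimic (log2 change 2.69 ± 0.13, edgeR adjusted p = 8.78e-09). Parp9, an ADP-ribosyltransferase that works with the ligase Dtx3l, had 172.7, 164.4 and 167.7 CPM with miR-29b, against 34.2, 25.4 and 25.8 CPM with the scrambled mimic (log2 change 2.58 ± 0.12, edgeR adjusted p = 7.57e-09). Its neighbour Dtx3l moved the other way, with 74.2, 56.8 and 63.0 CPM with miR-29b, against 170.2, 236.7 and 233.9 CPM with the scrambled mimic (log2 change −1.73 ± 0.14, edgeR adjusted p = 5.45e-07). The annotated spans of Parp9 (chr16:35938470-35972621) and Dtx3l (chr16:35926515-35939027, GRCm38.p6) overlap at their ends, and the strand setting of the counting is not given, so reads from the shared stretch cannot be told apart. Ifit3 and Oas1a have close copies in the mouse genome, and the sharing of reads with these was not tested.

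The other members past the threshold upward were Tlr3 (log2 change 1.20), Irf7 (1.08), Parp14 (0.89), Nlrc5 (0.80), Ifi44 (0.37) and Ddx58 (0.34). Irf7 had 875.5, 1669 and 1251 CPM with miR-29b, against 622.3, 577.1 and 598.6 CPM with the scrambled mimic, without overlap and with a wide spread in the miR-29b group (edgeR adjusted p = 0.000277). Ddx58 had 102.7, 121.7 and 110.2 CPM with miR-29b, against 92.4, 86.8 and 84.5 CPM with the scrambled mimic (log2 change 0.34 ± 0.09, edgeR adjusted p = 0.00693). Its RNA sensor relative Ifih1 overlapped, at 53.3, 41.2 and 46.2 CPM with miR-29b, against 60.1, 41.8 and 42.8 CPM with the scrambled mimic (log2 change −0.03 ± 0.14, edgeR adjusted p = 0.864).

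Downward, Adar had 25.0, 24.6 and 26.8 CPM with miR-29b, against 55.0, 49.2 and 53.1 CPM with the scrambled mimic (log2 change −1.04 ± 0.09, edgeR adjusted p = 1.12e-06). Tap1, a subunit of the peptide transporter for class I antigens, had 42.2, 34 and 38.8 CPM with miR-29b, against 79.3, 54.2 and 61 CPM with the scrambled mimic (log2 change −0.75 ± 0.13, edgeR adjusted p = 0.000363). Both genes were lower without overlap. Psmb8, an immunoproteasome subunit, had 14.6, 14.2 and 15.2 CPM with miR-29b, against 29.5, 18.5 and 21.2 CPM with the scrambled mimic (log2 change −0.63 ± 0.15, edgeR adjusted p = 0.0027). Eif2ak2 had 79, 60.6 and 68.2 CPM with miR-29b, against 82.9, 96.2 and 94.4 CPM with the scrambled mimic (log2 change −0.40 ± 0.11, edgeR adjusted p = 0.00928). Rnf213, Zbp1, Irf1 and Dhx58 were the other genes lower.

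The classical effectors Ifit1 and Isg15 overlapped. Ifit1 had 486.8, 243 and 381.6 CPM with miR-29b, against 679.9, 390.1 and 418.7 CPM with the scrambled mimic (log2 change −0.42 ± 0.24, edgeR adjusted p = 0.15). Isg15 had 208.5, 142.7 and 175 CPM with miR-29b, against 287.4, 85.4 and 111.6 CPM with the scrambled mimic (log2 change 0.13 ± 0.34, edgeR adjusted p = 0.763). In both groups replicate 1 held the highest value of these genes. Without replicate 1 of the scrambled pulldown, 20 of 43 genes were higher, against 33% of all genes. In that refit Isg15 changed by 0.84 (edgeR adjusted p = 0.000462), and Mx1 and Ifi35 turned to higher (log2 changes 0.80 and 0.50, edgeR adjusted p = 0.0123 and 0.0155).

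**Figure D3:**
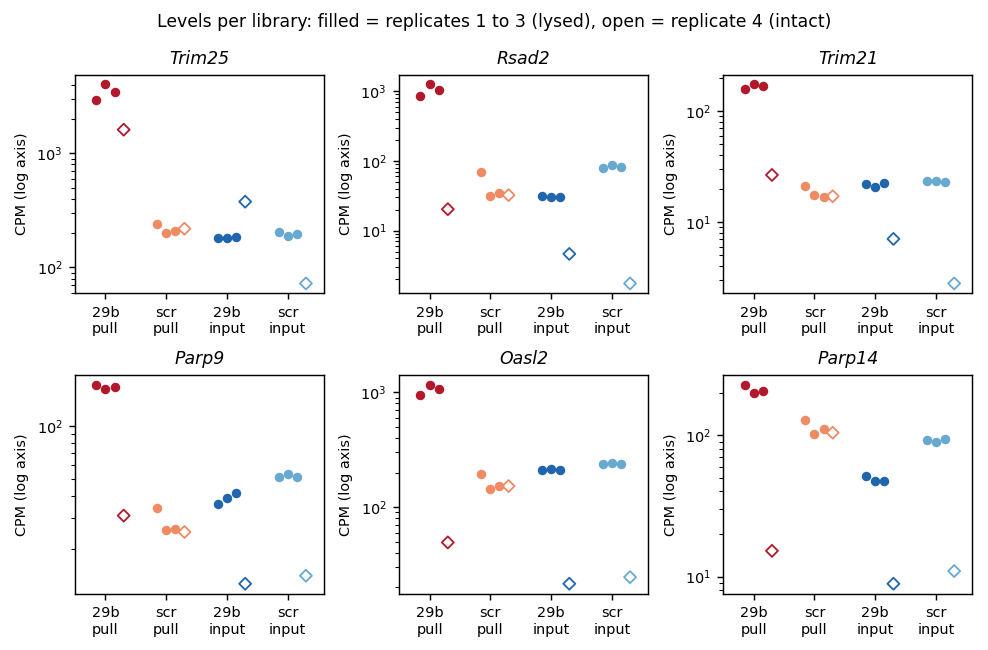
Levels (CPM, log axis) of 6 genes in the miR-29b pulldown, scrambled pulldown, miR-29b input and scrambled input, with filled points for the 3 lysed libraries and open diamonds for the intact library of each group. The lysed miR-29b pulldown lies highest for each of these genes, and the diamond of the scrambled pulldown lies among or just below its lysed points.

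Each pulldown was also set against its own input. With miR-29b, 13 of 43 genes were higher in the pulldown than in the input and 19 lower, against 34.1% and 31% of all genes, with a median of −0.46 (−0.01 over all genes). With the scrambled mimic, 7 were higher and 28 lower, against 27.7% and 26.4% of all genes, with a median of −0.72 (0.03 over all genes). Without overlap, 15 were higher (37% of all genes) and 23 lower (36.6%) with miR-29b, and 9 higher (29%) and 27 lower (28.8%) with the scrambled mimic. Both comparisons share their groups with those above and below, so they are not independent of them.

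The genes recovered over input with miR-29b were led by Rsad2 (log2 change 5.08 ± 0.29, edgeR adjusted p = 2.78e-08), Trim25 (4.24 ± 0.15, edgeR adjusted p = 1.91e-09) and Trim21 (2.93 ± 0.11, edgeR adjusted p = 2.06e-09). Oasl2, Parp14 and Parp9 followed at 2.32 ± 0.13, 2.12 ± 0.11 and 2.12 ± 0.12 (edgeR adjusted p = 2.24e-08, 1.44e-08 and 2.49e-08). With the scrambled mimic the same 6 genes had log2 changes over input of −0.90, 0.14, −0.36, −0.54, 0.31 and −0.89 in the order Rsad2, Trim25, Trim21, Oasl2, Parp14, Parp9. Only Parp14 among them was higher there (edgeR adjusted p = 0.0278). Trim25 did not pass (edgeR adjusted p = 0.395), and the others were lower.

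Some members were less recovered with both mimics. Xaf1 had 105.4, 96.0 and 99.1 CPM in the miR-29b pulldown, against 201, 199.3 and 196 CPM in the miR-29b input, and 115.7, 82.3 and 89.7 CPM in the scrambled pulldown, against 249.3, 260.2 and 251.8 CPM in the scrambled input. Its log2 changes were −0.99 ± 0.12 with miR-29b and −1.41 ± 0.12 with the scrambled mimic (edgeR adjusted p = 1.51e-05 and 4.06e-06). Psmb9, an immunoproteasome subunit, had 33.4, 32.7 and 34.1 CPM in the miR-29b pulldown, against 79.6, 72.6 and 76.4 CPM in its input, and 49.8, 33 and 37.1 CPM in the scrambled pulldown, against 96.9, 84.2 and 87.1 CPM in its input. It fell by 1.19 ± 0.13 with miR-29b and by 1.17 ± 0.14 with the scrambled mimic (log2 units, edgeR adjusted p = 7.27e-06 and 2.4e-05). Irf9 had 33.4, 29.9 and 32.8 CPM in the miR-29b pulldown, against 48.5, 54.6 and 52.8 CPM in its input, and 32.5, 33.0 and 32.5 CPM in the scrambled pulldown, against 57.7, 62.8 and 51.1 CPM in its input (log2 changes −0.70 ± 0.10 and −0.81 ± 0.10, edgeR adjusted p = 5.59e-05 and 4.27e-05). For these 3 genes pulldown and input did not overlap with either mimic.

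With the scrambled mimic, the genes above input were Nlrc5, Rnf213, Adar, Dtx3l, Irf1, Eif2ak2 and Parp14. Nlrc5 had 38.8, 54.7 and 44.2 CPM in the miR-29b pulldown, against 13.4, 14.8 and 12.3 CPM in the miR-29b input, and 27.2, 25.5 and 26.8 CPM in the scrambled pulldown, against 15.6, 16.5 and 16.8 CPM in the scrambled input. It was above input with both mimics (log2 changes 1.77 ± 0.13 with miR-29b and 0.70 ± 0.13 with the scrambled mimic, edgeR adjusted p = 1.76e-07 and 0.000664). Rnf213, a very large ubiquitin ligase, had 175.6, 131.3 and 155.6 CPM in the miR-29b pulldown, against 84.4, 93.0 and 83.3 CPM in its input, and 374.6, 171.1 and 188.7 CPM in the scrambled pulldown, against 119.2, 128.5 and 117.3 CPM in its input (log2 changes 0.83 ± 0.24 and 1.01 ± 0.24, edgeR adjusted p = 0.00921 and 0.00393). Adar and Dtx3l were below input with miR-29b (log2 changes −0.46 ± 0.09 and −0.68 ± 0.14) and above it with the scrambled mimic (0.47 ± 0.09 and 0.47 ± 0.14).

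The comparison that corrects the pulldown for the input and for recovery with the scrambled mimic sets the 2 ratios against each other. Of the 43 genes, 13 were higher and 2 lower in this mimic-specific comparison, against 24.4% and 19.1% of all genes. The count of higher genes was 25 without replicate 1 of the scrambled pulldown (28.5% of all genes) and 4 with all 16 libraries in the model (17% of all genes). The median was 0.36, against −0.07 over all genes. The 13 included 3 sensors, 3 transcription factors, 3 effectors and 4 ubiquitin or ADP-ribose genes. No antigen processing gene and neither chemokine passed.

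Rsad2 led, at 63.0-fold (log2 change 5.98 ± 0.38, edgeR adjusted p = 1.95e-07). Part of that value came from the inputs, where Rsad2 was lower with miR-29b. Trim25 followed at 17.2-fold (4.10 ± 0.19, edgeR adjusted p = 2.73e-08), Trim21 at 9.79-fold (3.29 ± 0.15, edgeR adjusted p = 2.7e-08), Parp9 at 8.05-fold (3.01 ± 0.17, edgeR adjusted p = 8.55e-08) and Oasl2 at 7.29-fold (2.87 ± 0.18, edgeR adjusted p = 1.76e-07). For comparison, the 10 reported targets ranged from 2.60 to 5.20 on the log2 scale, a range that takes in Trim25, Trim21, Parp9 and Oasl2 and lies below Rsad2. The calls for Rsad2, Trim25, Trim21 and Parp9 held under all 21 alternatives tried, and that for Oasl2 under all but the model with the intact libraries included (edgeR adjusted p = 0.13).

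Parp14 was 3.50-fold higher (log2 change 1.81 ± 0.15, edgeR adjusted p = 1.74e-06), with 227.4, 197.7 and 206.6 CPM in the miR-29b pulldown, against 128.4, 101.5 and 110.9 CPM in the scrambled one. Next came Irf7 at 1.37 ± 0.26, Nlrc5 at 1.07 ± 0.18 and Tlr3 at 1.05 ± 0.20 (edgeR adjusted p = 0.000963, 0.00043 and 0.00129). The smallest log2 changes called were those of Ifi44 (0.85), Ddx58 (0.78 ± 0.13, edgeR adjusted p = 0.000463), Ifih1 (0.65 ± 0.20, edgeR adjusted p = 0.021) and Stat2 (0.54). For Ifih1, Stat2 and Ifi44 the pulldowns overlapped, and for Ifih1 the input term carried the difference. For Stat2, Ifi44 and Ddx58 the pulldowns differed by log2 changes of 0.28, 0.37 and 0.34, and the inputs by −0.26, −0.48 and −0.43. Dtx3l (−1.15 ± 0.19, edgeR adjusted p = 0.000449) and Adar (−0.93 ± 0.13, edgeR adjusted p = 9.51e-05) were the 2 lower.

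Ifit1 (0.36 ± 0.34, edgeR adjusted p = 0.412), Isg15 (0.21 ± 0.48, edgeR adjusted p = 0.748) and Eif2ak2 (0.02 ± 0.16, edgeR adjusted p = 0.951) were among the 28 that did not pass. The counts depended on the scaling, since the median of all genes in this comparison was −0.42 with upper-quartile factors and 0.25 with the authors' library totals, rather than −0.07. With upper-quartile factors 10 members were higher and 6 lower, against 18.6% and 34.3% of all genes. With the authors' library totals 22 were higher and 0 lower, against 25.1% and 4.38% of all genes. The member medians were 0.003 with upper-quartile factors and 0.72 with the library totals, each above that of all genes.

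**Figure D4:**
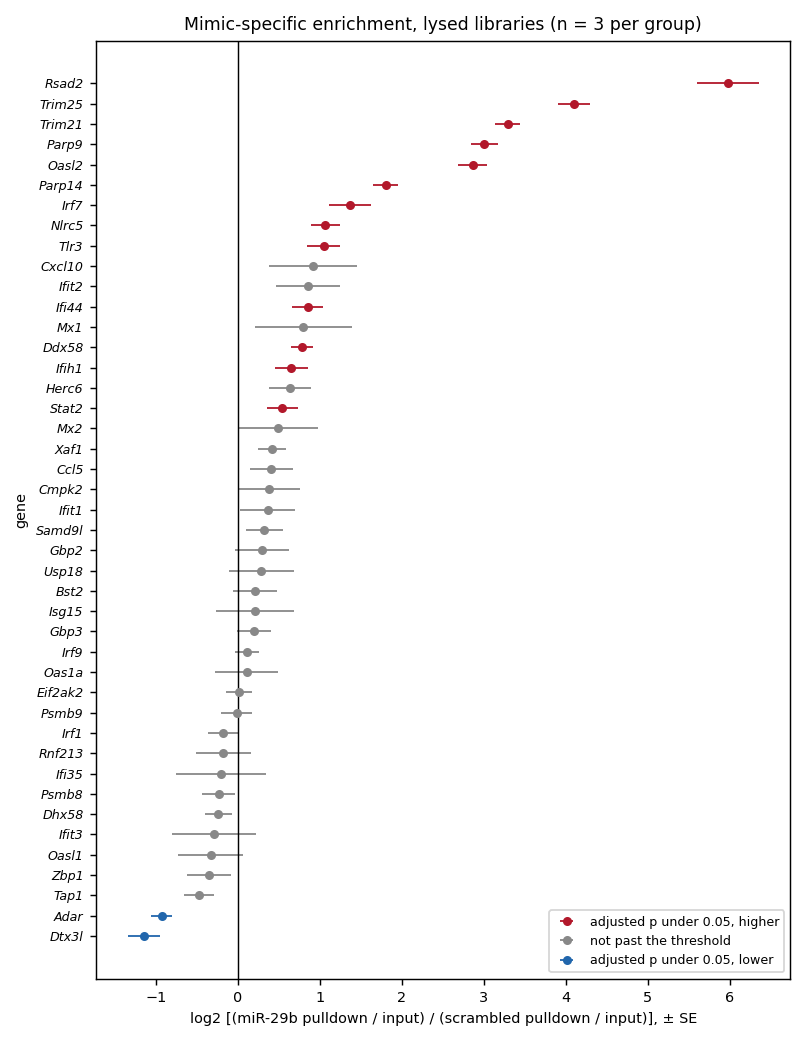
Log2 mimic-specific enrichment (x axis, ± SE) of the 43 genes (y axis) in the lysed libraries, with red points for the 13 called higher, blue for the 2 called lower and grey for the rest. Rsad2 lies farthest right at 5.98, followed by Trim25 at 4.10, while most members lie near 0.

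Genes of the pathway outside the list are read against the same background of 24.4% higher and 19.1% lower among all genes, whose median was −0.07. Of 51 other interferon-stimulated genes, 19 were higher and 3 lower in the mimic-specific comparison, with a median of 0.32. They included Ifi203, a nucleic acid binding protein (log2 change 3.57 ± 0.25, edgeR adjusted p = 4.33e-07), Gbp7 (3.00 ± 0.23, edgeR adjusted p = 7.28e-07) and B2m, the light chain of class I antigens (2.47 ± 0.18, edgeR adjusted p = 4.8e-07). H2-K1, a class I heavy chain, was lower (−1.13 ± 0.13, edgeR adjusted p = 2.45e-05). Of 13 receptor and signalling genes, 5 were higher and 2 lower, with a median of 0.34. They included Ifngr2, a chain of the interferon gamma receptor, at 3.65 ± 0.19 (edgeR adjusted p = 4.94e-08), the signalling inhibitor Socs1 at 2.79 ± 0.23 (edgeR adjusted p = 1.17e-06) and the kinase Jak1 at −1.27 ± 0.21 (edgeR adjusted p = 0.000414). Of 21 adaptors and kinases, 6 were higher and 2 lower, a share of higher genes near that of all genes, with a median of 0.06. Among them were Traf3 (2.56 ± 0.40, edgeR adjusted p = 0.000257) and Ikbke (1.85 ± 0.22, edgeR adjusted p = 3.32e-05), both of which relay sensor signals.

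The intact libraries had 1 pulldown per mimic and no test. In the intact miR-29b pulldown over its input, 7 of 43 genes were at least 2-fold higher and 10 at least 2-fold lower, against 19.3% and 20.7% of all genes. Trim25 had 1611 CPM in the intact miR-29b pulldown, against 377.2 CPM in the intact input, and Rsad2 had 20.2 and 4.62 CPM. Trim21 had 26.5 and 7.04 CPM, Parp9 had 30.9 and 12.6 CPM, and Oasl2 had 49.2 and 21.5 CPM. These 5 were thus higher in the intact pulldown too, by log2 ratios of 2.09, 2.11, 1.90, 1.29 and 1.19. Cmpk2 and Samd9l made up the 7. Gbp3 and Isg15 were lowest, at −2.80 and −3.01, with Gbp3 resting on 6 counts in the pulldown. Replicate 4 of the scrambled pulldown had the members at the lysed level, so the ratio of the mimics at replicate 4 sets an intact-like library against a lysed-like one: 38 of 43 genes were at least 2-fold lower in the miR-29b pulldown (25.7% of all genes) and 1, Trim25, at least 2-fold higher (21% of all genes).

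In the fractions, the members divided between nucleus and cytoplasm. Listed counts per fraction library were 5320421 to 20142591. In both inputs, 14 of 43 genes were at least 2-fold higher in the nuclear than in the cytoplasmic library (22.2% of all genes) and 6 at least 2-fold lower (23.1% of all genes). By mimic, 16 were higher (25.6% of all genes) and 6 lower (26.9%) with miR-29b, and 14 higher (24.3%) and 7 lower (25%) with the scrambled mimic. The split depended on the scaling. Without TMM factors, 20 were higher (42.6% of all genes) and 1 lower (14.3%) with miR-29b, and 19 higher (38.5%) and 3 lower (14.3%) with the scrambled mimic. Levels are relative to each library's own total after scaling, so they do not say how the RNA of a cell is divided.

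Rnf213 was the most nuclear, with 1533 CPM in the nuclear and 79.1 CPM in the cytoplasmic library of the miR-29b input, and 2198 and 111.2 CPM in the nuclear and cytoplasmic scrambled inputs. Nlrc5 followed, with 185 and 12.4 CPM in nucleus and cytoplasm with miR-29b and 235.7 and 17.0 CPM with the scrambled mimic. Mx1, Parp14, Stat2, Herc6 and Mx2 were 6.09-fold, 4.69-fold, 4.37-fold, 3.53-fold and 3.49-fold higher in the nucleus as a mean of both mimics, and Adar was 3.12-fold higher. At the other end, Irf7 had 108.6 and 329.9 CPM in nucleus and cytoplasm with miR-29b and 182.2 and 577.7 CPM with the scrambled mimic. Isg15 had 63.3 and 184.6 CPM in nucleus and cytoplasm with miR-29b and 80.3 and 244.5 CPM with the scrambled mimic. Bst2, which tethers budding virions, and Psmb9 were likewise cytoplasmic, with mean log2 ratios of −1.47 and −1.39. Cxcl10 and Ccl5 were too, at −1.50 and −2.46, on few nuclear counts: Cxcl10 had 9 with miR-29b and 51 with the scrambled mimic, and Ccl5 had 6 and 3.

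The nuclear genes were mostly those with long genomic spans. Across the 43 genes, Spearman's rho between the span and the nuclear over cytoplasmic ratio was 0.736, against 0.455 over 10668 genes matched by symbol. This is a correlation across genes, which share libraries and are not independent replicates.

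**Figure D5:**
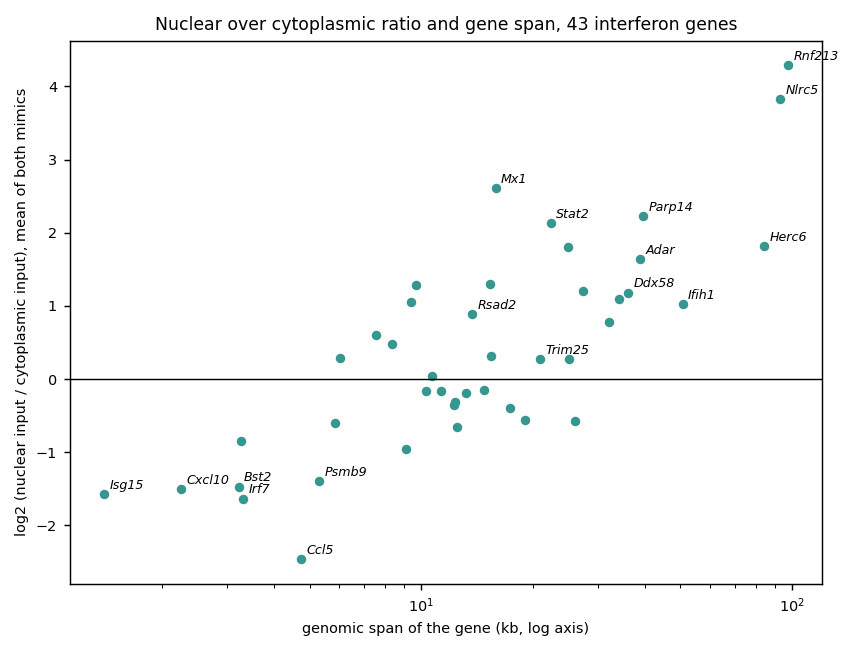
The genomic span of each of the 43 genes (x axis, kb, log axis) against its log2 nuclear over cytoplasmic input ratio (y axis, mean of both mimics, 1 library each). Rnf213 and Nlrc5 lie at the top, and the short genes Ccl5, Irf7, Isg15, Cxcl10 and Bst2 lie at the bottom.

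The pulldowns of the fractions showed little mimic-specific recovery of the members. All cytoplasmic ratios below use the cytoplasmic scrambled pulldown, the shallowest fraction library. Its 5320421 listed counts were 48.7% of the authors' library total, against 78.4% to 78.9% in the other cytoplasmic libraries. Ifit3 had 1412 CPM there and 389.5 CPM in the cytoplasmic scrambled input, while Tlr3 had 28.9 and 42.3 CPM. The part of this library in the cytoplasmic ratios was not tested. In the cytoplasm 5 of 43 genes were at least 2-fold higher and 11 at least 2-fold lower in the mimic-specific ratio (20% and 17.2% of all genes), with a median of −0.29, and in the nucleus 0 and 0 (2.54% and 3.09% of all genes). The 10 reported targets had medians of 2.08 in the cytoplasm and 0.73 in the nucleus in this mimic-specific ratio. Set directly against the scrambled pulldown, the miR-29b pulldown held 2 genes at least 2-fold higher and 18 lower in the cytoplasm (20.9% and 17.6% of all genes), and 0 higher and 2 lower in the nucleus (1.76% and 2.97% of all genes). The 2 higher in the cytoplasm were Samd9l (log2 ratio 1.04) and Tlr3 (1.02). Trim25 had 569.3 CPM in the cytoplasmic miR-29b pulldown and 317.7 CPM in the cytoplasmic scrambled pulldown, and 378.2 and 287.7 CPM in the nuclear miR-29b and scrambled pulldowns. Rsad2 had 69.7 and 78.4 CPM in the cytoplasmic miR-29b and scrambled pulldowns, and 12.3 and 36.5 CPM in the cytoplasmic miR-29b and scrambled inputs. The 5 genes at least 2-fold higher in the cytoplasmic mimic-specific ratio were Rsad2 (log2 ratio 1.39), Herc6 (1.36), Ifi44 (1.15), Trim25 (1.08) and Samd9l (1.02). Parp9, Trim21 and Oasl2, high in the lysed whole-cell comparison, had 0.90, 0.84 and 0.48 here. Rsad2, Trim25, Parp9, Trim21 and Oasl2 were each below their value in the lysed whole-cell libraries. Whether these ratios differ from the whole-cell ones could not be tested with 1 library per group.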

How the data were processed

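RNA was sequenced from 16 whole-cell and 8 fraction libraries. The deposited tables give raw counts per gene, CPM columns, in which the authors scaled the count plus 1 by a larger library total, and a score named PE whose formula is not given. STAR 2.3.0 and the build mm10 stand in the submitters' processing notes, with no role named. Counter, strand setting and filter: not given in the sources used here. Of 14052 lines, 518 repeated a gene and were dropped. The deposited table named for the nucleus repeats the cytoplasmic table byte for byte and holds both fractions.

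From the deposited counts, CPM values were computed with TMM factors. The 12 lysed libraries were fitted by group with edgeR 4.0.16 (R 4.3.3, limma 3.58.1) and its quasi-likelihood test, with Benjamini-Hochberg adjustment over 12834 genes, 700 genes having been left out as low. All 43 members passed this filter. The threshold was an adjusted p of 0.05. The 8 inputs were fitted with mimic and procedure as terms (12662 genes). Fraction ratios used a prior count of 2, and intact ratios used the CPM plus 0.1. The genes compared needed 20 counts in all, and neither kind of ratio had a test. Alternatives included DESeq2 1.42.0. The scripts were tested on simulated data.

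The members and lists were chosen with earlier results of these data known. Genes named for a comparison were the 4 with the smallest p in each direction among those past the threshold, plus Rsad2, Ifit1, Isg15, Ddx58, Ifih1, Irf7 and Eif2ak2, and others named were chosen after their values were seen. Deviations of same-numbered lysed libraries had a correlation above 0 in all 3 pairs, whichever groups were set together. Between the inputs r was 0.54, 0.424 and 0.165, and between pull29b and pullscram it was 0.45, 0.436 and 0.099. The lowest was 0.059, for replicate 3 of input29b with pullscram. Numbers that differ could go together too, as replicate 2 of pull29b did with replicate 3 of pullscram (0.381). Where the labels stop, shared cultures behind a number are not known. Genes with few counts are the least precise, and counts without molecular identifiers cover counting error only.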

Additional observations from a re-analysis of the deposited data

Results flagged for a closer look

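In 3 groups the median level of the interferon genes in replicate 4 stood apart from the 3 lysed libraries: its gap to the nearest library was 0.842 of the whole range in the miR-29b pulldown, 0.97 in the miR-29b input and 0.983 in the scrambled input, above the critical value for 4 libraries. Gene by gene, replicate 4 stood apart for 27 of 43 genes in the miR-29b pulldown and for 43 of 43 in the miR-29b input and 43 of 43 in the scrambled input. In the scrambled pulldown it was replicate 1, the shallowest library, that stood apart, for 17 genes, and replicate 4 for 0. Chance would mark about 1 group in 20, and genes of 1 library are not independent of each other.

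For 3 genes the ratio of miR-29b over scrambled input went opposite ways in intact and lysed libraries. In the intact libraries the log2 ratio was 2.378 for Trim25, 1.356 for Rsad2 and 1.301 for Trim21. In the lysed libraries it was −0.103, −1.425 and −0.103 in the same order. The lysed changes of Trim25 and Trim21 were small and did not pass over the 12 libraries (edgeR adjusted p = 0.807 and 0.742). The difference between intact and lysed libraries was not tested, since each mimic had 1 intact input.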

How the results depend on the processing

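All 42 calls of intact against lysed inputs held in 16 alternatives. With 1 lysed input left out, 42 genes were lower (25.1% to 27% of all genes) and 0 higher (24.5% to 27.3%). Trim25 turned to 0.96 without replicate 4 of the scrambled input and to −1.53 without replicate 4 of the miR-29b input. Of the 15 mimic-specific calls, 4 held in all 21 alternatives. Fitting all 16 libraries gave 4 higher and 0 lower there (17% and 9.21% of all genes). It gave 5 and 2 for miR-29b over scrambled pulldown (24.5% and 20.9%) and 0 lower for the inputs (0%). It gave 7 and 0 for the miR-29b pulldown over input (28.4% and 23.2%), and 0 and 0 for the scrambled one (18.5% and 17.4%). The cause was not tested.

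With upper-quartile factors, 6 genes were lower in the mimic-specific comparison (34.3% of all genes) and 2 in the inputs (0.803%). In miR-29b over scrambled pulldown 18 were lower (43.5% of all genes), where the median of all genes was −0.40. The authors' totals gave 22 higher and 0 lower in the mimic-specific comparison (25.1% and 4.38% of all genes). For miR-29b over scrambled pulldown they gave 17 higher and 3 lower (35% and 11.6%), with a median of all genes of 0.25. They gave 2 lower in the inputs (0.0862%) and 2 higher for the scrambled pulldown over input (17.9%). With only the groups compared in the fit, 32 genes were lower in the inputs (13.3% of all genes) and 4 in miR-29b over scrambled pulldown (24.9%). DESeq2 called 15 lower in the inputs (3.55%). A fit of replicates 1 and 2 only was an alternative added after the data were seen. It gave 7 higher and 1 lower in the mimic-specific comparison (13.3% and 3.93% of all genes). It gave 4 lower in miR-29b over scrambled pulldown (14%) and 0 lower in the inputs (0%). The miR-29b pulldown over input had 8 lower (19.4%), and the scrambled one 2 higher and 7 lower (12% and 10.9%).

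Leaving out 1 library gave the ranges below, with the shares of all genes in brackets. MiR-29b over scrambled pulldown had 10 to 20 higher (26.1% to 33%) and 5 to 14 lower (24.4% to 31.4%). The inputs had 1 to 19 lower (0.0614% to 5.04%) and 0 higher (0.138% to 3.43%). The miR-29b pulldown over input had 12 to 15 higher (30.4% to 36.8%) and 14 to 23 lower (27% to 35%). The scrambled one had 3 to 8 higher (22.6% to 31.6%) and 23 to 32 lower (22% to 31.7%). The mimic-specific comparison had 11 to 25 higher (21.8% to 28.5%) and 2 to 3 lower (14.8% to 24.2%). The upper ends of 20, 19 and 25 came without replicate 1 of the scrambled pulldown. The replicate block gave 15 higher and 3 lower in the mimic-specific comparison (26.2% and 22.2% of all genes). It lost no call in any lysed comparison and moved no count by over 1.5 times. Without TMM factors in the fractions, 1 gene with miR-29b and 3 with the scrambled mimic were at least 2-fold lower in nucleus than in cytoplasm. The share of all genes was 14.3% with each mimic. In the cytoplasm, 0 were higher in the miR-29b over scrambled pulldown and 3 in the mimic-specific ratio. The shares of all genes were not taken for both pulldown ratios, so these counts are not a result about the members.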

Other observations

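Dtx3l and Parp9, neighbouring genes whose proteins work together, differed in the mimic-specific comparison by sign, at −1.15 for Dtx3l and 3.01 for Parp9. In the lysed inputs both were lower with miR-29b when the 6 inputs were fitted alone, at −0.56 ± 0.05 for Dtx3l and −0.41 ± 0.06 for Parp9 (edgeR adjusted p = 8.48e-05 and 0.00139). In the inputs of the fractions Dtx3l was more cytoplasmic, at a mean log2 nuclear over cytoplasmic ratio of −0.66, and Parp9 more nuclear, at 1.10. The summed level of the 43 genes was 928 CPM in the intact miR-29b input and 947 CPM in the intact scrambled input, and 6448 to 6531 CPM in the lysed miR-29b inputs and 8559 to 8822 CPM in the lysed scrambled inputs.

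In the intact scrambled pulldown over its input, 40 of 43 genes were at least 2-fold higher (16.9% of all genes), with no test. That ratio sets replicate 4 of the scrambled pulldown, which held the members at the lysed level, against an intact input. The authors' deposited table gives a mean PE over the lysed replicates of 31.7 for Rsad2, 19.6 for Trim25 and 10.3 for Trim21, and a PE in the intact set of 7.82 for Trim25 and 0.657 for Rsad2.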
